A study of Mus musculus with 20 samples.

Results

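Cytosolic ribosomal protein mRNAs were compared between mouse embryonic stem cells (ESCs) with and without deletion of Cnot3. Cnot3 is a subunit of the CCR4-NOT complex, which shortens poly(A) tails in the cytoplasm. Members were the protein-coding genes whose symbol starts with Rpl or Rps, or is Rplp, followed by a number and only a, l or x, plus Rpsa. They numbered 80 of the 37991 gene IDs in the files, of which 31 encode proteins of the small (40S) subunit and 49 of the large (60S) subunit. Rpl24 also meets the rule by its symbol and was not analysed here, and the rule passes over genes such as Rps3a1, Fau and Rack1, which encode ribosomal proteins under other names.

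The ESCs carried a conditional Cnot3 allele and received 0.1 µM 4-hydroxytamoxifen (4OHT), which activates the recombinase in such lines, to give the deleted arm (KO), or DMSO as the undeleted arm (WT). Whole-cell RNA (total) and polysome RNA, from mRNA loaded with several ribosomes, were sequenced on day 3 of 4OHT. On day 2, actinomycin D, which blocks transcription, was added at 10 µg/ml, and whole-cell RNA was taken at 0, 4 and 8 h from both arms. Each of the 10 groups held 2 libraries that the design text calls biological replicates, and p-values measure the spread between these libraries. The strain label reads C57BL/6 for all libraries. For day 3, E14Tg2a is the source named for WT and the conditional line that for KO, whereas the design text calls WT the DMSO-treated conditional cells. If the source label holds, cell line and deletion cannot be told apart on day 3. The labels name neither the Cre driver nor the number of clones.

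Gene counts per library ran from 13832829 to 35170012. Cnot3 itself, in CPM (counts scaled to a common library size, here with TMM normalization), lay between 46.2 and 47.1 in total WT and between 7.33 and 8.12 in total KO, and between 107 and 109 in WT at 0 h against 11.4 to 11.9 in KO. All 8 ESC markers listed (among them Pou5f1, Sox2 and Nanog) were detected. Their summed level was 6308 to 6913 CPM in total WT and 3286 to 3475 CPM in total KO, and 4535 to 5162 against 3458 to 3677 CPM over the actinomycin D series. The 8 trophectoderm markers, genes of the outer lineage of the blastocyst, summed to 108 to 119 CPM in total WT and 525 to 547 CPM in total KO, to 64.3 to 79.9 against 373 to 873 CPM in polysomes, and to 42.6 to 89.6 against 103 to 175 CPM in the actinomycin D series. The 8 feeder fibroblast markers summed to 22.7 to 25.6 CPM in total WT and 41.6 to 47.1 CPM in total KO. Their sums were 39.3 to 53.5 against 55.0 to 58.8 CPM in polysomes, and 27.3 to 52.0 against 42.5 to 56.4 CPM in the actinomycin D series. Lum was at 0 in libraries of the actinomycin D series and Col3a1, Dcn and Postn at 0 in polysome libraries. The part of these shifts in the results below was not tested.

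Ribosomal proteins surround the ribosomal RNA, most of them as a single copy per ribosome, and the stalk proteins in more copies. Their mRNAs are among the most abundant in growing cells. Many begin with a C followed by a run of pyrimidines, the 5′ terminal oligopyrimidine (TOP) tract, through which mTOR and the RNA-binding protein LARP1 set their translation and their stability. The mRNAs are known as long-lived, which makes their behaviour after a transcription block of interest in cells that lack a subunit of CCR4-NOT.

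The start of 4 members shows this tract, and the starts of 2 pairs of paralogues show how far copies of 1 protein can differ there. Each window holds 15 bases before and 15 bases from the start that RefSeq annotates on GRCm38.p6, 5′ to 3′, with the longest run of C and T in capitals.
Rpl35 (chr2:39005117-39005146, minus strand): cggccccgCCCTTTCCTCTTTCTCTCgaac
Rpl38 (chr11:114668565-114668594, plus strand): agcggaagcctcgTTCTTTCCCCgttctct
Rps6 (chr4:86857353-86857382, minus strand): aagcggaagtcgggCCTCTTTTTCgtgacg
Rplp2 (chr7:141447636-141447665, plus strand): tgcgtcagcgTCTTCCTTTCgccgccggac
Rps27 (chr3:90213634-90213663, minus strand): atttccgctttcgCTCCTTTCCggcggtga
Rps27l (chr9:66946071-66946100, plus strand): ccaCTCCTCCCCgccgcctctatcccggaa
Rpl39 (chrX:37085208-37085237, minus strand): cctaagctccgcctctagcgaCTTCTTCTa
Rpl39l (chr16:10170213-10170242, plus strand): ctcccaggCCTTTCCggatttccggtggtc
The run spans 18 bases in Rpl35, 10 in each of Rpl38, Rps6 and Rplp2, 9 in both Rps27 and Rps27l, 8 in Rpl39 and 7 in Rpl39l. It crosses the annotated start in Rps27, whereas in Rps27l it lies before it. Of the 80 members, 60 had a start in the RefSeq table. A run of at least 8 pyrimidines lay in the window of 26 of them (43.3%), against 3760 of 27025 genes in the table (13.9%). The share was 39.1% of 23 small subunit members and 45.9% of 37 large subunit members. A run within this window is a description of these letters and not a mapped TOP start.

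Before the comparisons, the levels themselves need a limit. In the 16 polysome and actinomycin D libraries many members received few counts compared with the 4 total libraries. Rps27, a zinc finger protein of the 40S subunit, had 61047 reads over both total WT libraries, 37 over both polysome WT libraries and 44 over both WT libraries at 0 h. Rpsa, which sits at the solvent side of the 40S subunit, had 135280, 193 and 515. At 0 h in WT the share of counts of the median member was 14.6% of its share in total WT, and in WT polysomes it was 16.1%. Among 8528 other protein-coding genes with at least 10 CPM in total WT, the corresponding medians were 121% and 136%.

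Members with low counts relative to total WT tended to share more sequence with other annotated genes. Ribosomal protein genes are known for their many processed pseudogenes. Over the 80 members, the share at 0 h relative to total WT and the percentage of 50-base windows found in transcripts of other genes had a Spearman rho of −0.61, across genes that share libraries. The 40 members with at least 50% of windows shared had a median relative share of 4.57%, and the other 40 had 26.1%. Exceptions went both ways. Rpsa and Rps29, with 44.0% and 35.8% of windows shared, had relative shares of only 0.45% and 0.49%. Rpl35, with 95.1% of windows shared, had a relative share of 82.6%. Its level was low in total WT already, at 62.1 CPM per kb of transcript against a median of 1255 over the members. Reads tallied as aligning to more than 1 place made up 20.1% to 24.96% of all tallied reads in the total libraries and 0 in the other 16. The part of this difference in these low counts was not tested. For this reason the ratio of polysome to total level is not read as polysome loading for single members, and members are compared within a kind of library. A subset of 26 members, 11 small and 15 large, had at least 25% of their total WT share both in WT polysomes and at 0 h in WT. This subset is called the better counted members and was chosen after the counts were seen. The choice used WT libraries alone, with which KO is then compared. Its values for KO against WT are therefore descriptions and not separate support. The name refers to counts relative to total WT and not to the number of reads. Rpl3l, with 93 reads over both total WT libraries, belongs to it, and Rps24, with 92493, does not.

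**Figure D1:**
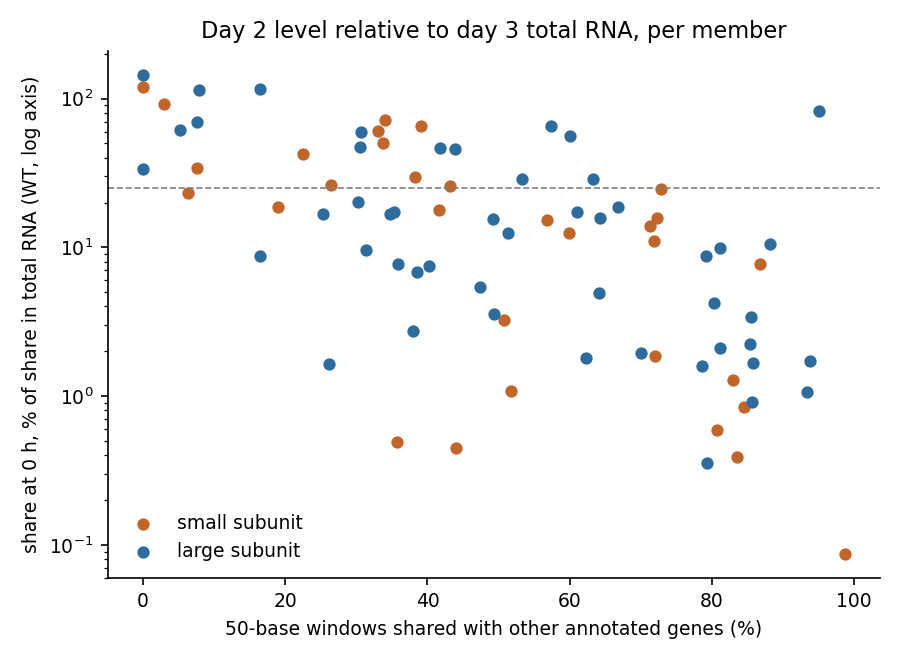
Share of counts of each of the 80 members in WT at 0 h as a percentage of its share in total WT (log axis), against the percentage of its 50-base windows found in transcripts of other annotated genes. Points are members, coloured by subunit, and the dashed line marks 25%. Rps27 lies at the lower right, and members with few shared windows lie mostly near or above the line.

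The family took up a smaller share of the counts in KO in each of the 5 settings. In total RNA the members summed to 8.01% and 6.88% of gene counts in the WT libraries and to 6.28% and 5.66% in the KO libraries. In polysome RNA the shares were 2.35% and 2.67% in WT and 2.04% and 1.91% in KO. At 0 h on day 2 they were 2.12% and 2.12% in WT and 1.79% and 1.73% in KO. Thus both KO libraries lay below both WT libraries each time, and the mean KO share was 80.2%, 78.8% and 83.1% of the WT mean. With 2 libraries against 2, the exact two-sided permutation test gave p = 0.333 each time, the smallest value the design allows. In whole-cell RNA, fewer cells of a type and less RNA per cell cannot be told apart.

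The balance between the summed counts of the subunits hardly moved. Small subunit counts divided by large subunit counts were 0.725 and 0.696 in total WT and 0.693 and 0.691 in total KO. In polysomes they were 0.684 and 0.777 in WT and 0.726 and 0.718 in KO, so that the KO libraries lay between the WT libraries. In the 12 actinomycin D libraries the ratio stayed between 0.634 and 0.653. The spread between the WT polysome libraries exceeded every difference between arms. The sums rest largely on the members with most counts. At 0 h in WT, Rpl4 had 171720 reads and Rpl8 119153 over both libraries. The large subunit counts of these libraries were 342645 and 367271.

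**Figure D2:**
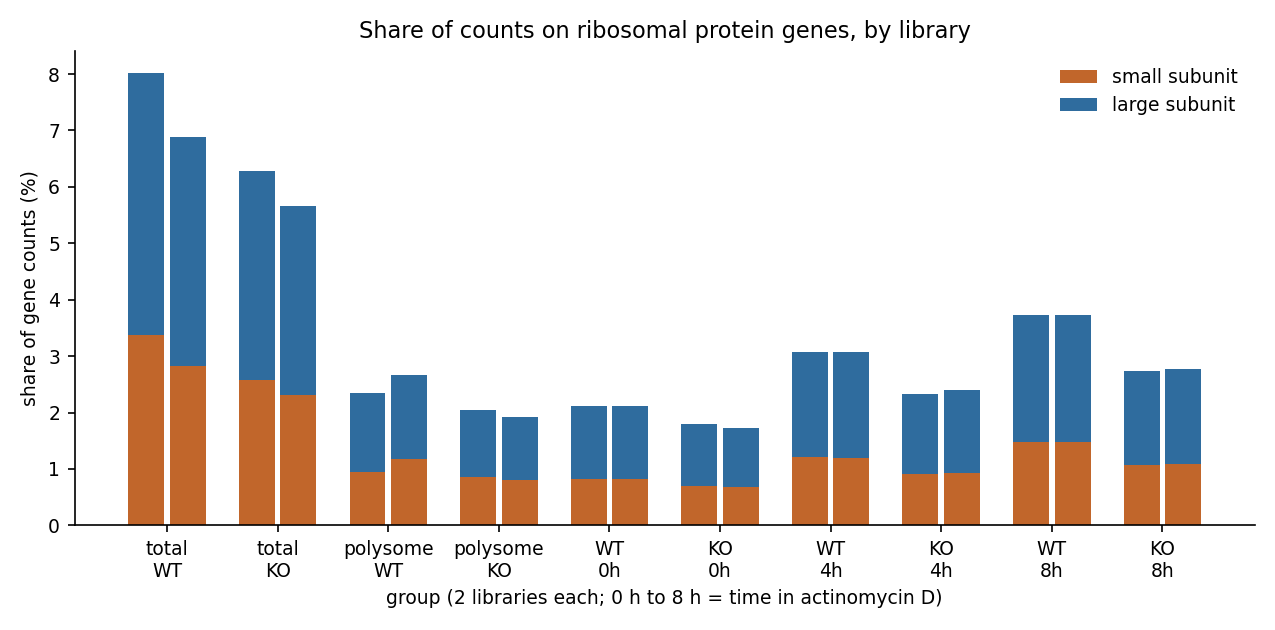
Percentage of gene counts that fell on small subunit (lower part) and large subunit (upper part) members in each of the 20 libraries, 2 bars per group. The bars fall from WT to KO in every setting and rise with time in actinomycin D in both arms.

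Per length of the principal transcript, the levels in total WT ran from 1.27 to 3593 CPM per kb, with a median of 1255. The highest were Rplp1, a protein of the stalk that recruits elongation factors (3593 CPM per kb), Rps27 (3272) and Rps21 (3079). The SDs (n = 2) were 677, 939 and 821 CPM per kb, so the order of these 3 members lies within their spread. Rpl3l, the striated muscle paralogue of Rpl3, was lowest, at 1.65 and 1.85 CPM in total WT.

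In total RNA on day 3, 44 of the 80 members were lower in KO and 0 higher by edgeR's quasi-likelihood test (adjusted p under 0.05, TMM scaling), against 12.2% of 18303 genes lower and 16% higher. The median log2 change of the members was −0.60, and that of all genes tested was 0.01. By subunit, 16 of 31 small and 28 of 49 large members fell, with medians of −0.60 and −0.58. Both KO libraries lay below both WT libraries for 78 members, which held for 39.4% of all genes tested. Of the 2 others, Rps27l overlapped between arms and Rpl3l was above WT in both KO libraries.

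Among these, Rpl39l showed the largest fall. It is a paralogue of Rpl39, which lines the tunnel through which the new chain leaves, and is known for its role in male germ cells. Its level was 90.4 and 67.5 CPM in WT and 38.2 and 30.3 CPM in KO, a log2 change of −1.21 (SE 0.17, adjusted p = 0.00103). Both KO libraries lay well below the lower WT library, and the call held without any single library. Rpl38, a 60S protein whose loss alters the axial skeleton in mice, was at 1328 and 910 CPM in WT and 673 and 568 CPM in KO (log2 change −0.85, SE 0.22, adjusted p = 0.0158). Rps21 was at 1442 and 985 CPM in WT and 725 and 625 CPM in KO (−0.85, SE 0.25, adjusted p = 0.0273). In both, the WT libraries differed more from each other than did the KO libraries, yet the arms did not overlap.

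Rpl35, next to the tunnel exit, had the second smallest adjusted p. It was at 62.6 and 54.9 CPM in WT and 38.0 and 34.2 CPM in KO (log2 change −0.70, SE 0.14, adjusted p = 0.00504). The stalk genes Rplp0, Rplp1 and Rplp2 had log2 changes of −0.54, −0.68 and −0.83, all past the threshold. Rpl5 and Rpl11, which bind 5S rRNA and can also bind Mdm2, differed in call but not clearly in size: Rpl11 had a change of −0.58 (adjusted p = 0.0424) and Rpl5 one of −0.55 (adjusted p = 0.235). Rps6, the substrate of the S6 kinases, was at −0.45 and did not pass (adjusted p = 0.161), nor did Rps19, mutated in Diamond-Blackfan anaemia, at −0.61 (adjusted p = 0.0556). The smallest falls were those of Rps27l at −0.24 (SE 0.22) and Rps14 at −0.38 (SE 0.18), neither past the threshold.

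The size of the call in total RNA rested on single libraries and on the scaling. Without the first total WT library or the second total KO library 1 member remained lower, without the first total KO library 5, and without the second total WT library 31. Without a WT polysome library, which shares the fit, it was 78, and without a KO polysome library 22 or 21. The share of all genes called lower moved too, from 3.34% and 3.47% without a total KO library and 3.48% and 6.15% without a total WT library to 9.31% and 9.33% without a KO polysome library and 24.5% and 24.6% without a WT polysome library. The median stayed between −0.82 and −0.50. With plain library totals as the scale, 5 members were lower and 1 higher, against 4.99% of all genes lower. That scaling moved the median of all genes from 0.01 to 0.27, and the members' median from −0.60 to −0.33, so the distance between them stayed at about the same size.

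**Figure D3:**
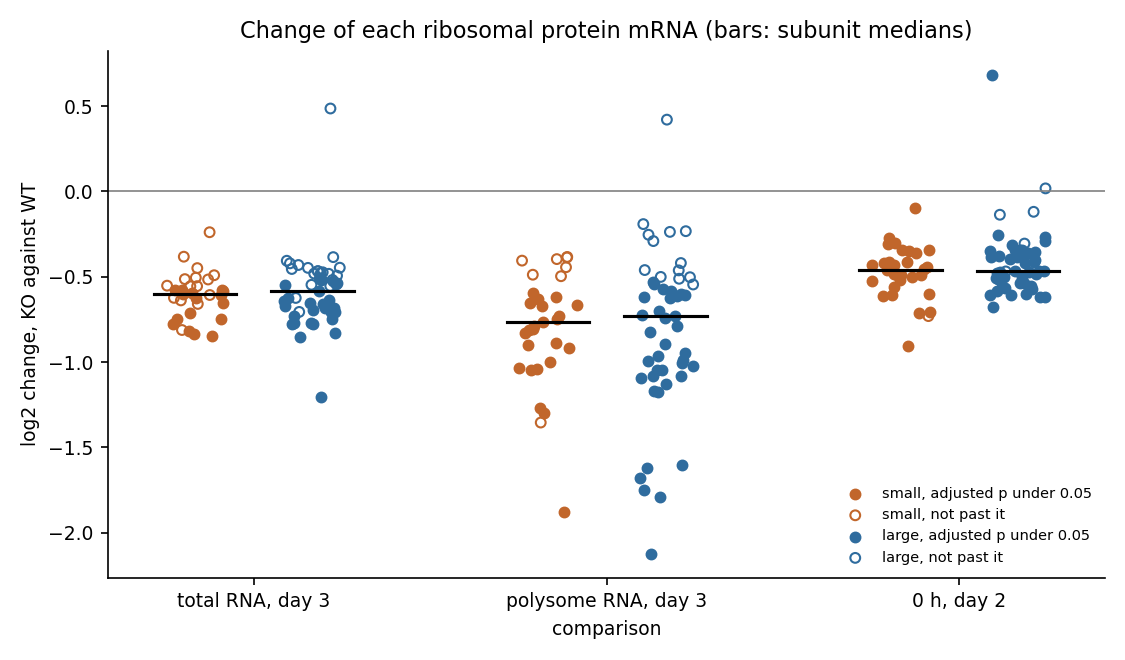
Log2 change in KO against WT of each member in total RNA, polysome RNA and at 0 h, by subunit. Filled points passed an adjusted p of 0.05, open points did not, and bars are subunit medians. The subunits overlap throughout. The highest point in each comparison is Rpl3l, and the long lower tail in polysome RNA holds Rpl10a, Rps12, Rpl5, Rpl12, Rpl10 and Rpl3.

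In polysome RNA, 59 members were lower in KO and 0 higher, against 21.1% of genes lower and 15.9% higher. The median log2 change was −0.74, with that of all genes at −0.08. The small subunit had 23 of 31 members lower with a median of −0.77, and the large subunit 36 of 49 with a median of −0.73. Both KO libraries lay below both WT libraries for 75 members and for 34% of all genes tested. Among the 26 better counted members 15 were lower, with a median of −0.60.

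The largest falls in polysomes came with few counts and with WT libraries that disagreed. Rpl10a, a protein of the L1 stalk, was at 23.4 and 106 CPM in WT and at 11.2 and 18.4 CPM in KO (log2 change −2.12, SE 0.52, adjusted p = 0.00977). Its 2 WT libraries differed 4.5-fold. Rps12 was at 5.28 and 12.3 CPM in WT and 2.22 and 2.60 CPM in KO (−1.88, SE 0.37, adjusted p = 0.00301), and Rpl5 at 16.9 and 44.0 CPM in WT and 7.02 and 10.6 CPM in KO (−1.79, SE 0.37). For 10 of the 54 other members, but for 0 of the 26 better counted ones, the WT polysome libraries differed by more than 2-fold. The second of these libraries had 12.9% of its tallied reads outside genes, against 4.75% to 7.05% in the other 3 polysome libraries. Without that library Rpl10a did not pass (log2 change −0.64, adjusted p = 0.1), while Rps12 (−1.115), Rpl5 (−0.92) and Rpl10 (−1.08) did.

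Members with even replicates fell less. Rplp2 was at 523 and 667 CPM in WT and 322 and 294 CPM in KO (log2 change −0.95, SE 0.21, adjusted p = 0.00628). Rpl22, which binds RNA outside the ribosome as well, was at 580 and 713 CPM in WT and 343 and 319 CPM in KO (−0.96, SE 0.20, adjusted p = 0.00371). Rpl39l, at 35.9 and 35.1 CPM in WT and 17.9 and 15.7 CPM in KO, changed by −1.08 (SE 0.18, adjusted p = 0.00142). Rps25, needed for initiation on some internal ribosome entry sites, changed by −0.83 (SE 0.17, adjusted p = 0.00376). Rpl7, Rpl7a and Rpl36al, with changes of −0.23, −0.19 and −0.25, did not pass. With 1 library left out, the members' median in polysomes stayed between −0.87 and −0.55. The count of members lower in polysomes dropped to 23 when the 4 polysome libraries were fitted alone, with 9.41% of all genes lower. With library totals it was 27, with 1 higher, against 10.9% of all genes lower.

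The association change, which is the change in polysomes beyond that in total RNA, passed in 0 members in either direction, against 0.00546% of genes lower and 0.00546% higher. DESeq2 also called 0 members, and 5 members had an unadjusted p under 0.05, against 2304 of all genes. The members' median was −0.13, with all genes at −0.08, and among the better counted members it was −0.04. The lowest values were those of Rpl10a (−1.62, SE 0.70), Rpl10 (−1.26, SE 0.38) and Rpl12 (−1.26, SE 0.49), all with adjusted p of at least 0.273. The highest was that of Rpl28 (0.40, SE 0.24). Without the first WT polysome library 16 members were called lower, with 15.2% of all genes lower in that fit, a share near that of the members. The standard errors leave room for changes in single members that these libraries could not show.

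At 0 h on day 2, before actinomycin D acted, 73 members were lower in KO and 1 higher, against 32.9% of 15823 genes lower and 29.8% higher. The median log2 change was −0.46, with all genes at −0.01. All but 1 of the small subunit members (30 of 31) and 43 of 49 large subunit members were lower, with medians of −0.46 and −0.47. Both KO libraries lay below both WT libraries for 77 members and for 41.5% of all genes tested. With 1 library left out, the members' median at 0 h stayed between −0.48 and −0.44. With library totals 61 members were lower and 2 higher, against 21.5% and 41.8% of all genes.

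Rpl22 had the smallest adjusted p at 0 h. It was at 335 and 339 CPM in WT and at 227 and 226 CPM in KO (log2 change −0.57, SE 0.037, adjusted p = 1.45e-16). Rpl23, which lies on the interface side of the 60S subunit, was at 237 and 239 CPM in WT and 160 and 168 CPM in KO (−0.54, SE 0.038, adjusted p = 2.12e-15). In both, the gap between arms was many times the gap between replicates. Rplp0, the base of the stalk, was at 993 and 992 CPM in WT and 722 and 715 CPM in KO (−0.47, SE 0.035), and Rplp1 changed by the same amount (−0.47). Rps19 went from 174 and 172 CPM to 139 and 130 CPM (−0.36, SE 0.043, adjusted p = 1.89e-09).

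The lowest values at 0 h belonged to members with few counts. Rps12 was at 5.61 and 4.25 CPM in WT and at 2.70 and 2.53 CPM in KO (log2 change −0.91, SE 0.18, adjusted p = 2.44e-05). Rpsa was at 9.25 and 8.81 CPM in WT and 6.21 and 4.76 CPM in KO (−0.71, SE 0.12, adjusted p = 4.28e-06). Rps27, at under 1 CPM, had a change of −0.73 that did not pass (SE 0.39, adjusted p = 0.0986). The other members that did not pass were Rpl23a, Rpl19, Rpl34, Rpl10l and Rpl28.

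Rps3, Rpl4 and Rpl8 are abundant members with little sequence in common with other genes, and were picked out after the counts were seen. Their share at 0 h in WT ran from 91.3% (Rps3) to 116% (Rpl4) of that in total WT. Rpl4, with a loop in the exit tunnel, was at 3316 and 3250 CPM in total WT, 2492 and 2326 CPM in total KO, 2968 and 3045 CPM in WT at 0 h, and 2281 and 2338 CPM in KO at 0 h. Its arms did not overlap on either day. At 0 h the log2 changes were −0.48 for Rpl8, −0.46 for Rps3 and −0.38 for Rpl4, and in total RNA −0.55, −0.65 and −0.45 in the same order. In polysomes they were −0.51, −0.62 and −0.46. Rpl4 did not pass in total RNA (adjusted p = 0.0931) or in polysomes (adjusted p = 0.073), nor did Rpl8 in polysomes (adjusted p = 0.0515).

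**Figure D4:**
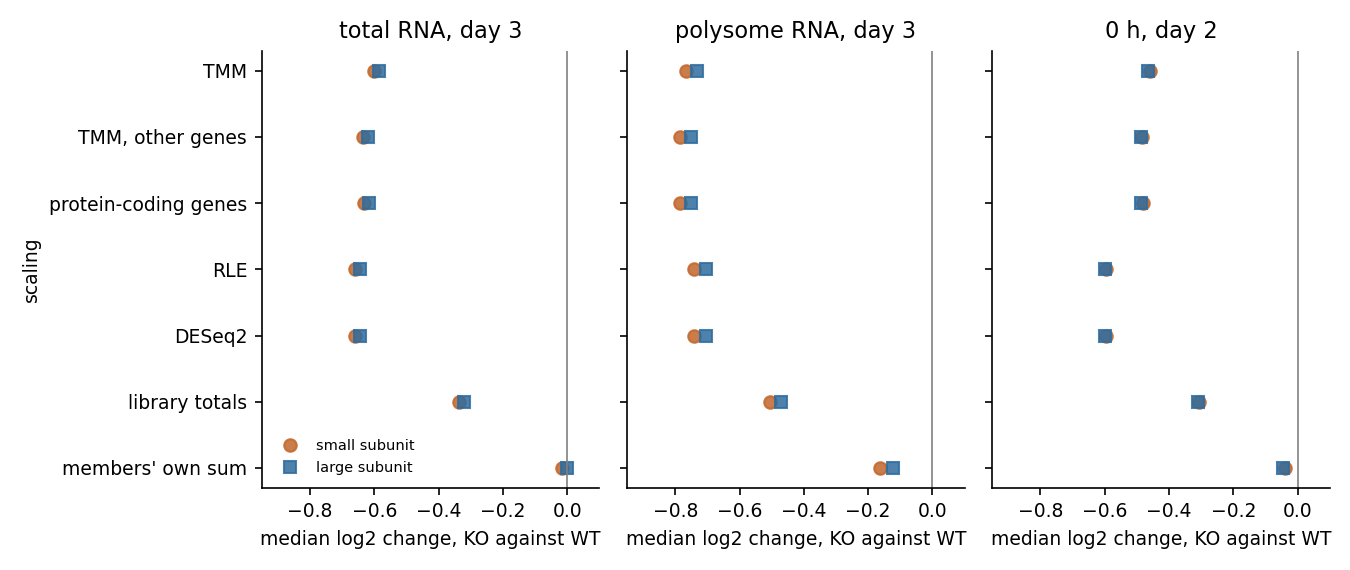
Median log2 change in KO against WT of the small subunit (circles) and large subunit (squares) members under 7 scalings, in total RNA, polysome RNA and at 0 h. Both subunits move together with the scaling. The medians are nearest 0 when each library is scaled to the members' own sum, and next nearest with library totals.

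After actinomycin D the family gained share in both arms. From 0 h to 4 h and 8 h, it went from 2.12% in both WT libraries to 3.08% and 3.07%, and then to 3.72% and 3.73%. In KO it went from 1.79% and 1.73% to 2.33% and 2.39%, and then to 2.74% and 2.77%. The mean share at 8 h was 1.76 times that at 0 h in WT and 1.56 times in KO, and the KO share was 83.1%, 76.7% and 74.0% of WT at the 3 times. These are shares of what remained. The files hold no measure of RNA per cell, so a gain says that members were lost more slowly than the rest of the counts, and not that they were made.

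Over 0, 4 and 8 h in WT, 71 members had a positive slope and 3 a negative one past the threshold, against 35% and 38.8% of 15823 genes. The median slope was 0.137 log2 per h for members and −0.006 for all genes. In KO, 69 were positive and 3 negative (Rpl10a, Rpl3 and Rpl10), against 31.6% and 36.3%, with a median of 0.103. Of these negative slopes, that of Rpl10 (−0.049, adjusted p = 0.0479) did not pass in 7 of 12 fits with 1 library left out, with RLE scaling (adjusted p = 0.123) or with DESeq2 (adjusted p = 0.186), and that of Rpl3 did not pass without either KO library at 0 h (adjusted p up to 0.0645). Small subunit members had median slopes of 0.148 in WT and 0.104 in KO, and large subunit members 0.123 and 0.093. Every one of the 26 better counted members had a positive slope past the threshold in both arms.

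Rps21 rose from 258 and 243 CPM at 0 h to 719 and 693 CPM at 8 h in WT, and from 186 and 172 CPM to 327 and 325 CPM in KO. Its slopes were 0.187 (SE 0.011) and 0.108 (SE 0.011) log2 per h. Rplp2 rose from 452 and 415 CPM to 1132 and 1097 CPM in WT and from 284 and 286 CPM to 513 and 511 CPM in KO, with slopes of 0.170 (SE 0.009, adjusted p = 3.59e-09) and 0.106 (SE 0.009). In both genes the arms drew apart: no KO library at 8 h reached even the WT level at 4 h. Rps2 and Rpl35 had the other steepest slopes in WT, 0.191 (SE 0.017) and 0.185 (SE 0.013). Rpl39 had one of 0.165 (SE 0.009, adjusted p = 8.28e-09).

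Only Rpl3, Rpl10a and Rpl28 had negative slopes past the threshold in WT. Rpl3, which lies near the peptidyl transferase centre, was at 9.69 and 10.0 CPM at 0 h, 2.70 and 2.90 CPM at 4 h and 3.48 and 3.88 CPM at 8 h, so that the decrease lay before 4 h (slope −0.188, SE 0.064, adjusted p = 0.0226). This call was lost without either WT library at 0 h (adjusted p up to 0.0991). Rpl10a went from 45.0 and 43.3 CPM to 21.03 and 19.3 CPM, and then to 19.8 and 19.9 CPM (−0.146, SE 0.035, adjusted p = 0.00375). Rpl28 stayed at 28.3 and 26.6 CPM and 29.4 and 25.1 CPM at 0 and 4 h and then went to 17.0 and 15.1 CPM (−0.095, SE 0.022, adjusted p = 0.0019). Counts of these 3 members at 0 h in WT were 0.9%, 10.6% and 5.4% of their total WT share. Whether the reads kept in these libraries come from the same transcripts as those in total RNA was not tested.

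The slope was lower in KO than in WT for 22 members and higher for 1, against 8.78% of genes lower and 10.2% higher. The median difference was −0.040 log2 per h, with all genes at −0.013. Of the small subunit 8 of 31 and of the large subunit 14 of 49 were lower, and among the better counted members 11 of 26. Rplp2 had a difference of −0.065 (SE 0.012, adjusted p = 0.00298), Rps21 one of −0.079 (SE 0.015, adjusted p = 0.00319), and Rplp1 and Rps19 ones of −0.066 and −0.060 (both adjusted p = 0.00621). These 4 kept their call without any single library. Rps29 (−0.093) and Rpl36 (−0.090) had the largest negative differences past the threshold, on under 30 CPM. Each library left out in turn gave between 5 and 28 members lower, with 3.43% to 11.1% of all genes lower. The members' median difference stayed between −0.044 and −0.036. Without either WT library at 0 h the count was 7 or 6, with 4.13% or 3.57% of all genes lower. Without either KO library at 8 h the count was 5 or 6, with 3.43% or 3.62% of all genes lower. The count was also 12 without the first KO library at 0 h (4.59% of all genes) and 10 without the first WT library at 8 h (5.18%). RLE scaling gave 5 members with 3.51% of all genes lower, library totals 9 with 4.08%, and DESeq2 11 with 5.10%. Time as a factor gave 51 members with 24.3% of all genes for 0 to 8 h, and 36 with 13.1% for 0 to 4 h.

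Rpl28 was the 1 member whose slope was higher in KO (difference 0.119, SE 0.031, adjusted p = 0.0186). In KO it was at 27.0 and 28.6 CPM at 0 h, 32.1 and 35.4 CPM at 4 h and 32.5 and 30.9 CPM at 8 h, against the fall at 8 h in WT given above. The adjusted p rose to at most 0.0682 with 1 library left out, when the call was lost in 5 of 12 cases: without either KO library at 0 h, the first KO library at 8 h, or either WT library at 8 h.

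**Figure D5:**
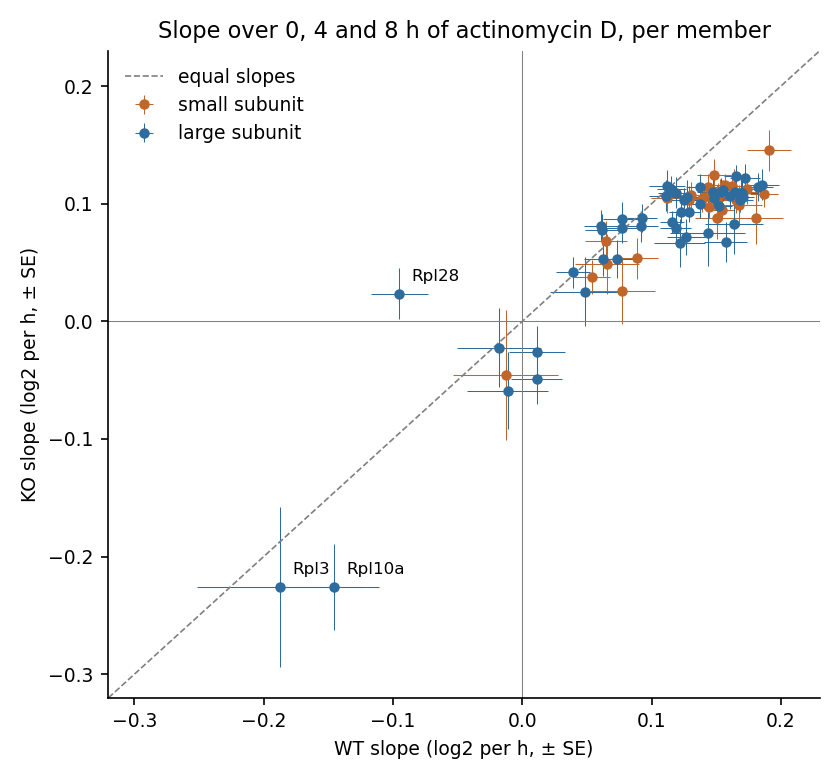
Slope over 0, 4 and 8 h of actinomycin D in WT (horizontal) and KO (vertical) for each member, in log2 per h with standard errors. Most members lie in the upper right and below the dashed line of equal slopes. Rpl28 lies above the line, and Rpl3 and Rpl10a have negative slopes in both arms.

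Scaling each library to the members' own sum asks which members depart from the family, and does not depend on the rest of the library. In total RNA 1 member then fell and 1 rose, against 1.63% and 48% of all genes: Rpl39l at −0.62 (SE 0.23, adjusted p = 0.015) and Rpl3l at 1.06 (SE 0.32, adjusted p = 0.00267). In polysomes 8 fell and 1 rose, against 4.98% and 38.9%. The 8 were Rpl10a, Rps12, Rpl5, Rpl12, Rpl10, Rpl9, Rpl3 and Rps28, and 0 of them belong to the better counted members. At 0 h 14 fell and 11 rose, against 7.15% and 64.6%. The slopes in WT were lower than the family's for 34 members and higher for 18, against 80.1% and 1.59%, and the slope difference was lower for 4 and higher for 10, against 1.61% and 23.2%.

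At 0 h the members above the family were led by Rpl3l (1.10, SE 0.20), Rpl28 (0.44, SE 0.071, adjusted p = 5.05e-07), Rps27l (0.32, SE 0.045, adjusted p = 2.41e-08) and Rpl10l (0.30, SE 0.070, adjusted p = 0.0002). Those below it included Rps12 (−0.49, SE 0.18, adjusted p = 0.0121), Rplp2 (−0.18, SE 0.041, adjusted p = 0.00012) and Rpl22 (−0.15, SE 0.038, adjusted p = 0.000415). Rps12 was below the family in polysomes too, and Rpl3l was above it in all 3 comparisons. Within actinomycin D, the 3 stalk members and Rpl22 had slopes above the family's in WT, by 0.025 (Rplp0), 0.025 (Rplp1), 0.027 (Rplp2) and 0.029 (Rpl22) log2 per h, and Rpl5 and Rpl12 slopes below it, by −0.132 and −0.155.

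Close paralogue pairs are given by member, and differences within a pair were not tested. Rps27l, a target of p53, was at 407 and 323 CPM in total WT and 332 and 286 CPM in total KO, with overlap between the arms, and at 119 and 126 CPM in WT and 114 and 115 CPM in KO at 0 h (log2 change −0.10, SE 0.044, adjusted p = 0.0465). That call was lost in 5 of 12 cases with 1 library left out, and with library totals its value was 0.05. Rpl3l went from 1.65 and 1.85 CPM to 2.38 and 2.51 CPM in total RNA (0.49, SE 0.24, adjusted p = 0.145) and from 2.22 and 1.79 CPM to 3.91 and 2.48 CPM at 0 h (0.68, SE 0.20, adjusted p = 0.0032). The 0 h call was lost without the first KO or the second WT library at 0 h. With 93 reads over both total WT libraries it was the least counted member in total RNA. Rpl10l, the germline paralogue of Rpl10, was at 25.9 and 23.8 CPM in WT and 22.7 and 23.1 CPM in KO at 0 h, and its change of −0.12 did not pass (adjusted p = 0.142). Its partner Rpl10, added last to the 60S subunit, changed by −0.60 (SE 0.093, adjusted p = 5.86e-07) on under 20 CPM.

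The pair Rpl36a and Rpl36al changed at 0 h by −0.62 (SE 0.093, adjusted p = 2.94e-07) and −0.26 (SE 0.057, adjusted p = 0.000164). Rpl39 and Rpl39l changed by −0.57 (SE 0.062) and −0.48 (SE 0.077) at 0 h, whereas in total RNA Rpl39 did not pass (−0.62, SE 0.24, adjusted p = 0.0715) and Rpl39l had the largest fall of all members.

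The fall at 0 h spanned the positions in the ribosome that were listed. There 14 of 14 proteins of the 40S head and 15 of 16 of the 40S body were lower, with medians of −0.44 and −0.49, as were 7 of 9 around the 60S tunnel exit (−0.47) and 6 of 6 of the stalk and 5S particle (−0.47). In total RNA the counts were 5 of 14, 11 of 16, 5 of 9 and 4 of 6, with medians between −0.63 and −0.57. In polysomes they were 12 of 14, 11 of 16, 9 of 9 and 6 of 6, with medians between −0.96 and −0.78. Among all genes tested, 32.9% were lower at 0 h, 12.2% in total RNA and 21.1% in polysomes.

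The listed genes outside the symbol rule, among them Rps3a1, Fau, Rack1 and the related Rpl22l1 and Rpl7l1, had a median change of −0.53 in total RNA, where 2 of 6 passed as lower, and −0.35 at 0 h, where 6 of 6 did. Of all genes tested, 12.2% were lower and 16% higher in total RNA, 21.1% and 15.9% in polysomes, and 32.9% and 29.8% at 0 h. Of 18 other TOP mRNAs of the translation machinery, 4 were lower and 0 higher in total RNA (median −0.44), and 16 and 0 at 0 h (−0.32). In polysomes 4 of these 18 were lower, a share near that of all genes, and 0 higher (−0.29). Among them the elongation factor gene Eef2 changed by −0.31 at 0 h and −0.71 in polysomes, and Pabpc1, the poly(A)-binding protein gene, by −0.45 and −0.72, all past the threshold. The 2 that did not pass at 0 h were Eif4b, an initiation factor gene, at 0.01 and Tpt1 at −0.38 (adjusted p = 0.105). Of these 18, 17 had a positive slope past the threshold in WT and 18 in KO, against 35% and 31.6% of all genes. The 77 mitochondrial ribosomal protein genes tested, whose products serve another ribosome, had a median of −0.15 at 0 h. Of these, 38 were lower and 9 higher, against 32.9% and 29.8% of all genes. Their median slope difference was 0.018, with 1 lower and 20 higher, against 8.78% and 10.2% of all genes.

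Of 23 regulators of TOP mRNAs, 19 were lower and 1 higher at 0 h, against 32.9% and 29.8% of all genes. In total RNA 6 were lower and 1 higher, against 12.2% and 16%. Larp1, which binds the TOP tract, changed by −0.66 (SE 0.04) at 0 h and −0.74 (SE 0.18) in total RNA, and Rps6kb1, an S6 kinase gene, by −0.85 (SE 0.05) and −0.84 (SE 0.14). Mycn, a transcription factor that raises ribosomal protein transcription, changed by −1.004 (SE 0.05) and −1.53 (SE 0.20). Mtor changed by −0.11 (SE 0.04) at 0 h and by −0.05 in total RNA, where it did not pass. Ddit4, an inhibitor of mTOR complex 1 that stress induces, was the 1 regulator past the threshold upwards, by 1.499 (SE 0.14) at 0 h and 1.54 (SE 0.15) in total RNA. Whether any of these changes bears on the ribosomal protein mRNAs was not tested.

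The changes of single members in total RNA on day 3 and at 0 h on day 2, which share no library, had a Pearson r of 0.61 and a Spearman rho of 0.44 across the 80 members. Across the 26 better counted members these were 0.88 and 0.82. These are descriptions across genes, which are not independent, and the single value of Rpl3l lies far from the others in both.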

How the data were processed

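Cytosolic ribosomal protein mRNAs were measured by RNA sequencing in 20 libraries from mouse ESCs. The deposited files hold raw counts of reads per gene. Per the submitters' processing notes, the authors used STAR 2.3.0e, HTSeq and the mm9 build; no source used here gives the HTSeq version or the handling of reads with several alignments. Symbols and transcripts came from GENCODE M21 (GRCm38) by gene ID, which matched 32938 of 37991 IDs, and 5053 had no symbol. Tallies of unassigned reads (4.75% to 19.0% outside genes) were left out.

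Counts were fitted in edgeR 4.0.16 (R 4.3.3) over all genes with filterByExpr (minimum count 10), TMM scaling and robust quasi-likelihood F-tests, and p-values were adjusted by Benjamini-Hochberg over all genes tested (threshold 0.05). The 8 total and polysome libraries and the 12 actinomycin D libraries were 2 fits. Slopes are log2 per h with 1 intercept and slope per arm. CPM are TMM-scaled. Standard errors come from the fit.

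Members named were the 3 highest, 3 lowest and 2 smallest adjusted p per contrast, the 3 highest per length, those apart from the family in 2 comparisons, and members of known roles or in paralogue pairs; others named were chosen after their values were seen. Some items are not reported here. The members and lists were chosen with earlier results of these data known. Alternatives were RLE scaling, library totals, TMM without the members, the members' sum, protein-coding genes only, other filters, DESeq2 1.42.0, a replicate block, subsets of libraries and times, and each library left out, when a lone library was taken to vary as the other groups do. The fit was tested on simulated data. Figures were drawn with matplotlib.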

Additional observations from a re-analysis of the deposited data

Results flagged for a closer look

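The slope of scaled abundance after actinomycin D differed between arms for some members by the test of the slope difference itself. Past an adjusted p of 0.05 in edgeR, 22 members had a lower slope in KO than in WT and 1 a higher one, against 8.78% and 10.2% of all genes. The first count was 5 with RLE scaling, with 3.51% of all genes lower. It was from 5 to 28 with 1 library left out, with 3.43% to 11.1% of all genes lower. Members gained share of the counts in both arms, so a lower slope here is a smaller gain in share for most of them. Among the members named, the differences were −0.0926 log2 per h for Rps29, −0.0898 for Rpl36, −0.0787 for Rps21, −0.0689 for Rpl35, −0.0683 for Rpl38, −0.0656 for Rplp1, −0.0647 for Rplp2, −0.0599 for Rps19, −0.0595 for Rplp0, −0.0503 for Rpl22, −0.0418 for Rpl39 and −0.0404 for Rps25. For Rpl28 it was 0.119.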

How the results depend on the processing

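Low counts limit many members outside the total libraries, and 2 libraries per group limit every call. The number of members lower in total RNA (44) was 5 with library totals, 1 with the members' sum and 68 with DESeq2, and from 1 to 78 with 1 library left out. The number higher (0) was 1 with library totals, with the members' sum and with the 4 libraries alone. In polysomes the number lower (59) was 27 with library totals, 8 with the members' sum and 23 with the 4 libraries alone, and from 11 to 69 with 1 library left out, and the number higher (0) was 1 with library totals and with the members' sum. At 0 h the number lower (73) was 14 with the members' sum, against 7.15% of all genes. The number higher at 0 h (1) was 2 with library totals, 11 with the members' sum and 0 with DESeq2. The shares of all genes higher were 41.8%, 64.6% and 16.9%. The number higher also moved with 1 library left out. For the WT slope, 34 were lower and 18 higher with the members' sum (3 and 71 otherwise), against 80.1% and 1.59% of all genes. Over 0 to 4 h 5 were lower, against 36.2% of all genes. For the slope difference, the number lower (22) was 5 with RLE, 9 with library totals, 4 with the members' sum, 11 with DESeq2, 51 for 0 to 8 h and 36 for 0 to 4 h, and from 5 to 28 with 1 library left out, and the number higher (1) was 10 with the members' sum and from 0 to 1 with 1 library left out. The number of members with a lower association change (0) was from 0 to 16 with 1 library left out. The share of all genes called moved in these settings too, for the slope difference from 3.43% to 11.1% lower with 1 library left out. The cause of these moves was not tested, beyond the smaller number of samples where libraries were left out. The median association change (−0.13) was 0.0616 with no filter and ran from −0.27 to 0.193 with 1 library left out. The median WT slope was −0.00619 with the members' sum, and Rps27l at 0 h was 0.0542 with library totals. With the replicate block, 45 members were lower in total RNA, 61 in polysomes, 73 at 0 h and 18 in the slope difference. The labels give numbers but no shared batch, and deviations of same-numbered libraries had correlations from −0.0209 to 0.274, so the numbers were not taken as pairs. Over 122 named results that passed the threshold, 2135 values under other settings kept direction and threshold, 388 kept the direction but were no longer past it, and 26 had the other direction. Apart from Rps27l with library totals, these came with the members' sum as the scale, which by construction sets each member against the family. At 0 h they were 0.0251 for Rpl10a, 0.0704 for Rpl11, 0.00746 for Rpl3, 0.165 for Rpl36al, 0.0789 for Rpl5, 0.152 for Rpl7, 0.128 for Rpl7a, 0.0793 for Rps14, 0.0595 for Rps19 and 0.321 for Rps27l. In total RNA they were 0.0642 for Rpl36al and 0.0361 for Rplp0, and in polysomes 0.0618 for Rpl27. For the WT slope they were −0.0811 for Rpl10l, −0.0703 for Rpl11, −0.028 for Rpl23, −0.0816 for Rpl27, −0.0661 for Rpl36a, −0.0824 for Rpl36al, −0.0663 for Rpl39l, −0.0247 for Rpl7, −0.0203 for Rpl7a, −0.0661 for Rps12, −0.0316 for Rps14 and −0.0785 for Rps6. Medians over the better counted members were an alternative chosen after seeing the data.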
